A study of Homo sapiens with 18 samples.

Results

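The human mitochondrial genome is a small circular DNA with genes of its own, and the results below describe the RNA of all 37 of them in a neuroblastoma line. The members were taken as every gene placed on the mitochondrial chromosome (MT) by the annotation in the count files, which gave 13 mRNA genes, 2 rRNA genes and 22 tRNA genes out of 57905 Ensembl genes counted. The cells were BE(2)-m17, an established human neuroblastoma line that carried an APP overexpression vector (pSBbi-Hyg-APP) in every group. The empty vector control cells, labelled Puro, carried pSBbi-Pur in addition, and the ABCC1-overexpressing cells carried pSBbi-Pur-ABCC1 with a codon-optimized human ABCC1, a membrane exporter. The vectors are Sleeping Beauty transposons, which insert into the genome, and stably expressing cells were selected with antibiotic. RNA was taken on day 4 from wells plated with 14000000 cells in medium with 10% serum, in 3 experiments (RNA1, RNA2 and RNA3 in the labels) with 3 libraries per line each, 18 libraries in all. Libraries of the first experiment came from TruSeq RNA Library Prep Kit v2, which selects RNA by its poly(A) tail, and is called the mRNA kit here. Those of the second and the third came from SMARTer Stranded Total RNA-Seq Kit v2 in its Pico version, which primes at random and removes rRNA sequences, those of the mitochondrion included, and is called the total RNA kit. One label field names the SMARTer kit for the first experiment too, and the kit named by its other field and by the study's methods was used. Kit, experiment and sequencer changed together and cannot be told apart. According to the study's results section the repeats used cryopreserved cells and newly transfected cells, named in that order. The sample labels do not say which experiment was which.

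Both strands of the mitochondrial genome are transcribed as long precursors that span most of the circle. The tRNAs lie between the mRNA and rRNA genes, and cutting them out at both ends releases the messengers, so neighbouring genes share a transcript and differ afterwards by how fast each RNA is cut, given a tail, kept and degraded. The 13 mRNAs encode core subunits of the respiratory chain and ATP synthase: 7 belong to complex I (MT-ND1 to MT-ND6 and MT-ND4L), 1 to complex III (MT-CYB), 3 to complex IV (MT-CO1 to MT-CO3) and 2 to ATP synthase (MT-ATP6 and MT-ATP8). MT-RNR1 and MT-RNR2 encode the rRNAs of the small and the large subunit of the mitochondrial ribosome, which translates only these 13 messengers. Neurons are known for their reliance on this chain for ATP.

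The gene ends show how closely the genes are packed, and they are given for the mRNAs on which the results turn. Of the 13 mRNA genes, 6 end inside a codon, 5 of them on a single T and MT-ND1 on TA, and poly(A) addition to the RNA completes the stop codon. The last 15 bases of each gene follow, 5′ to 3′ on the coding strand, with the encoded stop or the part of a stop in capitals. All 37 genes matched GENCODE release 29 by Ensembl ID with the same MT coordinates as in the files, and the letters are from that release.
MT-ND1 (MT 3307 to 4262, plus strand): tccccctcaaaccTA
MT-ND2 (MT 4470 to 5511, plus strand): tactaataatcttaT
MT-CO1 (MT 5904 to 7445, plus strand): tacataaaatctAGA
MT-CO2 (MT 7586 to 8269, plus strand): gtatttaccctaTAG

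MT-ATP8 and MT-ATP6 overlap by 46 bases (MT 8527 to 8572) and MT-ND4L and MT-ND4 by 7 bases (MT 10760 to 10766), and each pair is one messenger in the cell. A read pair that touches both genes of an overlap was assigned to neither by the counting. The first overlap is printed from the start codon of MT-ATP6, in capitals, to the last base of MT-ATP8: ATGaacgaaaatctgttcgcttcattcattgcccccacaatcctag

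Among the 22 tRNAs, which measured 59 to 75 bases, the results turn on MT-TC (tRNA for cysteine), MT-TN (asparagine), MT-TP (proline) and MT-TF (phenylalanine), shown with the last 3 encoded bases in capitals. A functional tRNA ends in CCA, which the nuclear-encoded enzyme TRNT1 adds to the RNA. The end of 1 of the 22 genes (MT-TY, tyrosine) reads CCA too. Its CC is complementary to the GG that opens the gene, so these letters are not the added tail.
MT-TC (MT 5761 to 5826, minus strand): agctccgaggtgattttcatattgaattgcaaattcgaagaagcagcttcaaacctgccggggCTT
MT-TN (MT 5657 to 5729, minus strand): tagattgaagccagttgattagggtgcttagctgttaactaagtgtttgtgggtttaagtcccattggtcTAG
MT-TP (MT 15956 to 16023, minus strand): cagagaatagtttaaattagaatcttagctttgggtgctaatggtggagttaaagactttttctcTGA
MT-TF (MT 577 to 647, plus strand): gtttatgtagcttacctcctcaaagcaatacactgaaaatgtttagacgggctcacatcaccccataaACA

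Depth ranged from 8866994 to 57937653 counts per library, and the vector copy of ABCC1 had at least 51035 counts in every ABCC1-overexpressing library and at most 15 in any control library. CPM are counts scaled to the library total times the TMM factor of its experiment. Of 12 adrenergic neuroblastoma markers, 11 stood above 4.15 CPM per kilobase in every library. That limit is the highest level of the 11 markers of other cell types with DCN left out. Of these 11, 4 had 0 counts in some library, and DCN reached 9.60 CPM per kilobase in the first experiment. The adrenergic markers TH and ISL1 went down to 4.36 and 8.80 in the second. Stray reads, measured as the summed level of 350 olfactory receptor genes, were 0.00381 to 0.00558 CPM per kilobase in the first experiment, 0.140 to 0.661 in the second and 1.14 to 1.64 in the third. They were lower in the ABCC1-overexpressing libraries than in the controls without overlap in all 3 experiments, at 0.00381 to 0.00444 against 0.00473 to 0.00558, 0.140 to 0.430 against 0.486 to 0.661 and 1.14 to 1.43 against 1.47 to 1.64 CPM per kilobase. In the first experiment, replicate 3 of the ABCC1-overexpressing cells stood apart from the other 5 libraries in its mitochondrial share.

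The 37 genes took 2.19 to 2.80% of the counts in the first experiment, 3.26 to 4.16% in the second and 2.58 to 3.66% in the third. ABCC1-overexpressing and control cells did not separate in this share. In the first experiment it was 2.46% ± 0.305 (SD, n = 3) with ABCC1 against 2.31% ± 0.111 in the controls, in the second 3.58% ± 0.0980 against 3.69% ± 0.451, and in the third 2.86% ± 0.283 against 3.25% ± 0.490 (exact two-sided permutation p = 0.6, 0.7 and 0.3, where 3 against 3 libraries cannot go below 0.1). With labels permuted within each of the 3 experiments, the mean difference was -0.1204 percentage points (exact p = 0.4435). The difference of the first experiment rested on 1 library, since without ABCC1 replicate 3 it was -0.0263 percentage points, and that of the second was 0.124 without control replicate 2.

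**Figure D1:**
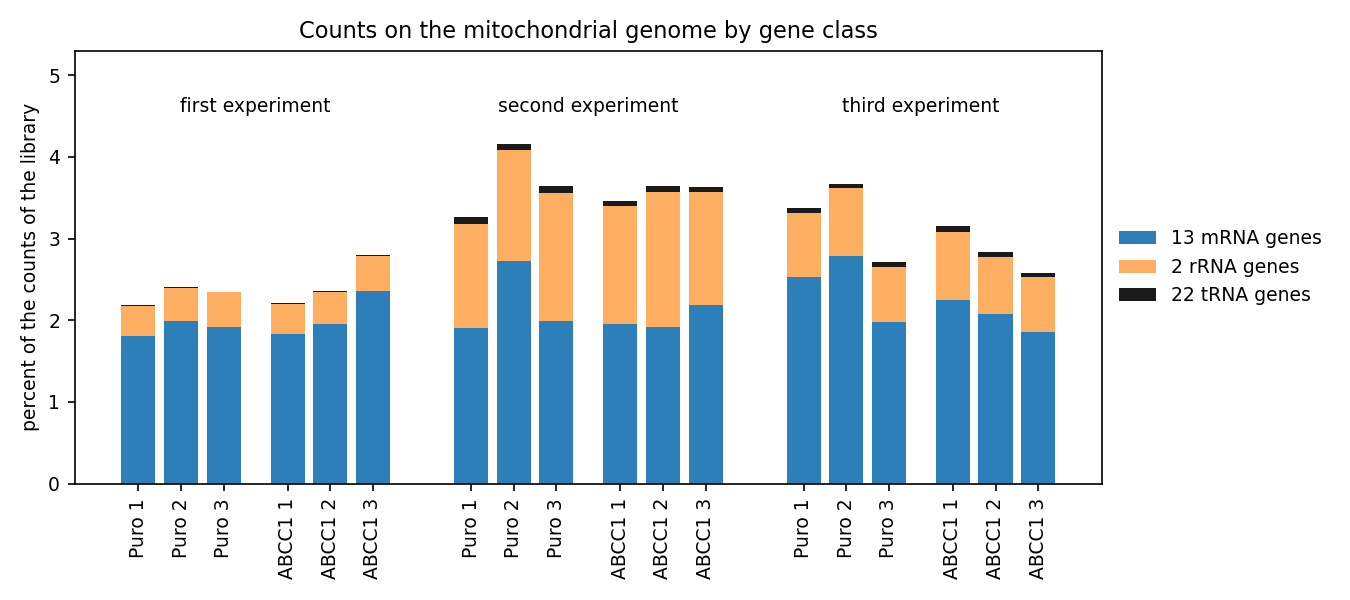
Share of each library's counts that fell on the 13 mRNA, 2 rRNA and 22 tRNA genes of the mitochondrial genome, in percent, for each of the 18 libraries. The summed bars run from 2.19 to 4.16% and overlap between ABCC1 and Puro in every experiment, and the rRNA part is largest in the second experiment.

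By class, the mRNAs made up 81.7 to 84.3% of the mitochondrial counts in the first experiment, 52.9 to 65.4% in the second and 71.3 to 75.9% in the third. The rRNAs took 15.3 to 18.01%, 32.9 to 45.3% and 22.8 to 26.4%, and the tRNAs 0.325 to 0.512%, 1.57 to 2.46% and 1.28 to 2.34%. Within experiments the lines separated in 2 of these shares, both in the first. The rRNA part was 16.1% ± 0.691 with ABCC1 and 17.2% ± 0.692 in the controls, and the tRNA part 0.476% ± 0.0561 and 0.343% ± 0.0195 (n = 3 each, exact p = 0.1 for each, the smallest this design allows). In the other experiments the rRNA part lay the other way and overlapped between the lines in the second, at 41.6% ± 3.63 with ABCC1 against 38.3% ± 5.11 (exact p = 0.5), and in the third, at 25.6% ± 1.102 against 23.6% ± 0.979 (exact p = 0.2). The tRNA part was lower with ABCC1 in the second, at 1.79% ± 0.184 against 2.20% ± 0.429, and higher in the third, at 2.24% ± 0.1095 against 1.80% ± 0.492, and neither passed (exact p = 0.3 for each).

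Levels per length were uneven although the plus-strand genes lie on shared precursors. In control cells of the first experiment MT-CO3 was highest at 2753 ± 144 CPM per kilobase (SD, n = 3), followed by MT-ND2 at 2655 ± 68.3, MT-CO2 at 2647 ± 161 and MT-ND4 at 2582 ± 171, and neighbours among these 4 overlapped in their libraries, while MT-ND4 lay above MT-ATP8, the next at 2233 ± 112, without overlap. MT-ND1, between the rRNA genes and MT-ND2 on the map, stood at 820 ± 29.2, MT-ND5 at 604 ± 49.1 and MT-ND6 at 267 ± 16.9. The last is the only mRNA gene on the minus strand and is known for a short tail or none. In the control cells of the second and the third experiments all 12 pairs of neighbours in the order overlapped in their libraries, with MT-CYB first in the second (2821 ± 560) and MT-CO1 first in the third (2867 ± 876), and MT-ND3 last in both (863 ± 61.9 and 654 ± 55.1). In ABCC1-overexpressing cells MT-ND2 ranked first in all 3 experiments, at 3546 ± 660, 3213 ± 415 and 3078 ± 178 CPM per kilobase, and in the second and the third its libraries did not overlap with those of the gene ranked next.

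**Figure D2:**
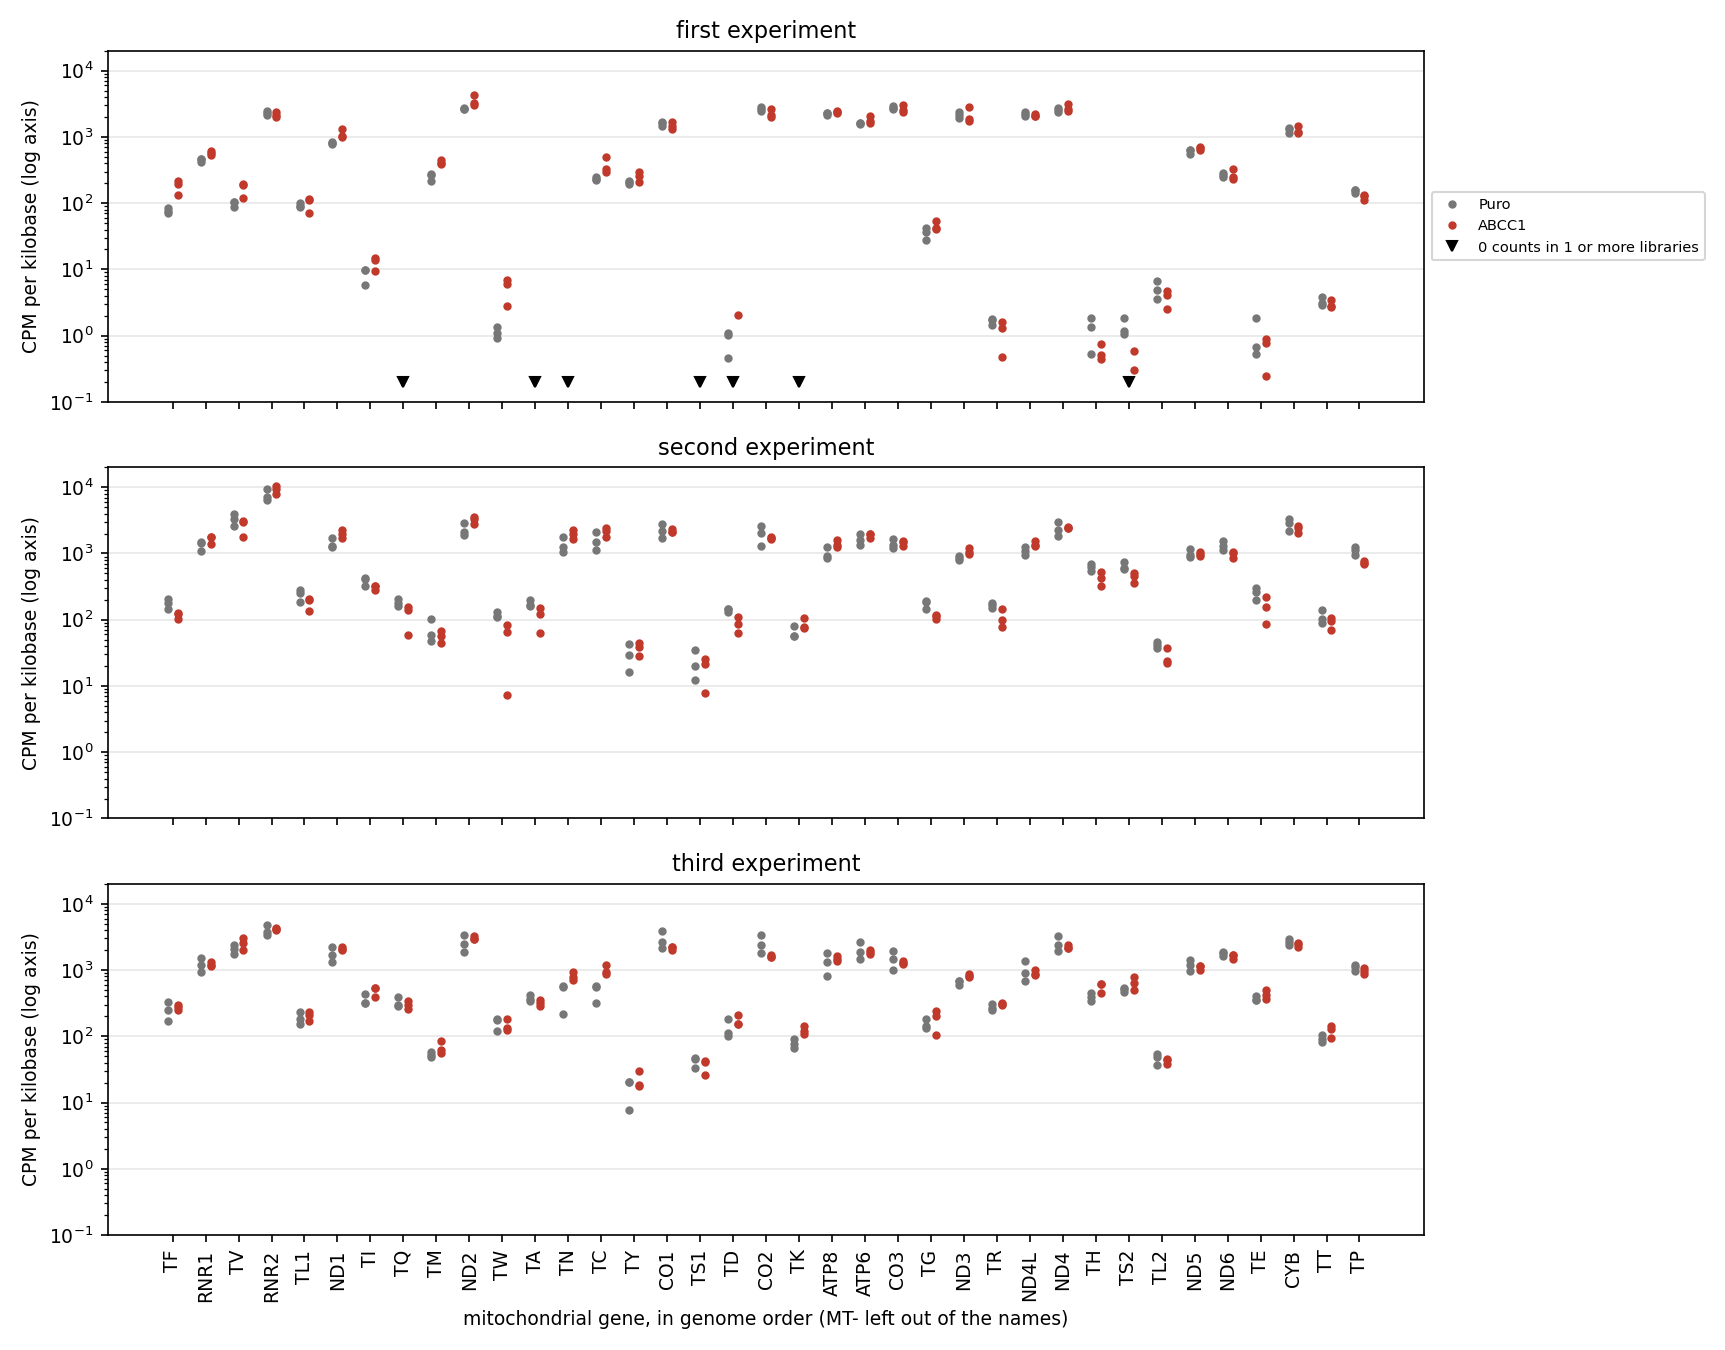
CPM per kilobase on a log axis for each of the 37 mitochondrial genes in genome order, 1 point per library, grey for Puro and red for ABCC1, with 1 panel per experiment and triangles for genes with 0 counts in some library. The first experiment lacks counts for MT-TQ, MT-TA, MT-TN, MT-TS1 and MT-TK, which all have counts in the second and the third.

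The mRNA kit and the total RNA kit gave different pictures of the tRNAs and of MT-ND6. Since 91.6% of all genes tested differed between the first experiment and the mean of the others in control cells, and 89.8% in ABCC1-overexpressing cells (edgeR quasi-likelihood test, adjusted p of at most 0.05), the calls on 34 and 32 of the 37 mitochondrial genes tell nothing particular about them. Counts were therefore set against the mitochondrial total of the same library, as a description, and are given as mitochondrial CPM, which are CPM computed on that total.

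Of the 22 tRNAs, 18 in control cells and 17 in ABCC1-overexpressing cells lay lower in every library of the first experiment than in every library of the others on this scale, where 57.1% and 45.1% of all genes tested did. MT-TQ (glutamine), MT-TA (alanine), MT-TN, MT-TS1 (serine) and MT-TK (lysine) had 0 counts in all 6 libraries of the first experiment, where the limit that 0 counts allow is 1.851 to 4.554 mitochondrial CPM. MT-TN had 2396 to 3487 mitochondrial CPM in control cells of the second experiment and 520 to 1637 in those of the third. MT-TV (valine), which lies between the rRNA genes, ran from 271 to 307 mitochondrial CPM in control cells of the first experiment and from 4658 to 8003 in those of the second.

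MT-TM (methionine) and MT-TY went the other way. MT-TM lay between 627 and 826 mitochondrial CPM in control cells of the first experiment against 83.8 to 187 in the second and 90.1 to 158 in the third, and MT-TY between 549 and 639 against 37.6 to 74.3 and 20.8 to 44.8. These 2 tRNAs were above all total RNA libraries in ABCC1-overexpressing cells too, with 967 to 1284 mitochondrial CPM for MT-TM and 626 to 718 for MT-TY. MT-TM lies directly before MT-ND2, and MT-TY is the end of the minus-strand tRNA cluster nearest to MT-CO1. MT-TM ends at MT 4469 and MT-ND2 starts at MT 4470, so a pair over both was not counted. The counting ignored strand, so a read pair over a minus-strand tRNA may come from RNA of the other strand.

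Among the mRNAs, 7 in control cells and 8 in ABCC1-overexpressing cells were above all total RNA libraries in mitochondrial CPM, as were 16.9% and 14.3% of all genes tested. MT-CO3 had 92067 to 93735 in control cells of the first experiment against 28913 to 39060 in the others, and MT-ND3, MT-ND4L and MT-ATP8, the short genes, were also above. MT-ND6 went the other way, at 5909 to 6114 mitochondrial CPM against 18221 to 20853 in the second and 24019 to 34082 in the third. In control cells MT-CYB was also below, at 59462 to 64176 against 89840 to 98183 and 86130 to 109396. Both rRNAs were below all total RNA libraries in both lines.

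The comparison of ABCC1-overexpressing with control cells asks whether the transporter changes the transcriptome of these cells, here at the mitochondrial genome. MT-ND1 and MT-ND2, the first mRNA genes after the rRNAs, were higher with ABCC1, and MT-CO2, which encodes a catalytic-core subunit of complex IV, was lower relative to the other mitochondrial messengers. The mean effect over the 3 experiments came from 1 edgeR fit to all 18 libraries, scaled by all genes. It was a log2 fold change of 0.47 ± 0.11 (SE) for MT-ND1 (adjusted p = 0.00217) and 0.45 ± 0.12 for MT-ND2 (adjusted p = 0.00679). That fit gave each gene 1 spread for all 3 experiments. With each experiment fitted alone, the SE of both genes was smaller in the first than in the others, so the pooled spread may fit no single experiment. MT-ATP8, an ATP synthase subunit, was the third mRNA called, at 0.32 ± 0.11 (adjusted p = 0.0425), and in all 7 of the 37 mitochondrial genes were called against 12.9% of all genes tested. The number called was 4 without control replicate 3 of the first experiment or ABCC1 replicate 2 of the third. The other 10 mRNAs were not called, with values from -0.31 for MT-CO2 (adjusted p = 0.0905) to 0.28 for MT-ND3 (adjusted p = 0.0607).

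The counts of the 13 mRNAs against their own sum do not depend on the nuclear genes or on library size. This scale and the mean over the experiments were chosen after values had been seen. MT-ND1 took 4.28, 4.05 and 3.94% of the mRNA counts in the 3 control libraries of the first experiment and 5.28, 5.14 and 5.41% in those with ABCC1. In the second experiment it took 7.19, 6.56 and 6.18% against 9.81, 7.77 and 8.55%, and in the third 7.21, 7.09 and 7.03% against 9.35, 9.31 and 9.39%. Every ABCC1-overexpressing library was thus above every control library of its experiment, and the mean log2 differences were 0.37, 0.39 and 0.39.

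MT-ND2, another complex I subunit, took 14.9, 14.2 and 14.2% in the controls and 17.6, 17.5 and 19.1% with ABCC1 in the first experiment. The second gave 12.03, 11.95 and 11.02% against 16.6, 13.8 and 15.7%, and the third 11.4, 11.9 and 10.7% against 14.4, 15.03 and 15.3%. The groups did not overlap in any experiment, with mean log2 differences of 0.32, 0.40 and 0.40. MT-ND1 and MT-ND2 were the only mRNAs apart in the same direction in all 3 experiments, where 1.2% of the 16734 genes with at least 10 counts on average in each experiment were apart and higher on this scale. On the scale of all genes, 8.16% of the 16734 were apart in every experiment, 6.68% higher and 1.49% lower with ABCC1. Of the 25 mitochondrial genes among the 16734, 0 were apart in every experiment.

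MT-CO2 took 9.28, 9.15 and 9.91% of the mRNA counts in the controls and 7.39, 7.48 and 7.64% with ABCC1 in the first experiment. In the third it took 7.26, 7.85 and 6.80% against 4.998, 5.06 and 5.24%. In the second the groups overlapped, at 5.40, 7.15 and 6.86% against 4.99, 5.72 and 5.47%, because control replicate 1 lay within the ABCC1 range. MT-CO1, the largest core subunit of complex IV, had a similar pattern, at 12.2 to 13.1% against 11.2 to 11.4% in the first, 15.8 to 17.1% against 15.2 to 15.97% in the second and 17.8 to 20.001% against 15.1 to 15.9% in the third experiment. The mean log2 differences were -0.33, -0.25 and -0.52 for MT-CO2 and -0.17, -0.090 and -0.27 for MT-CO1.

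**Figure D3:**
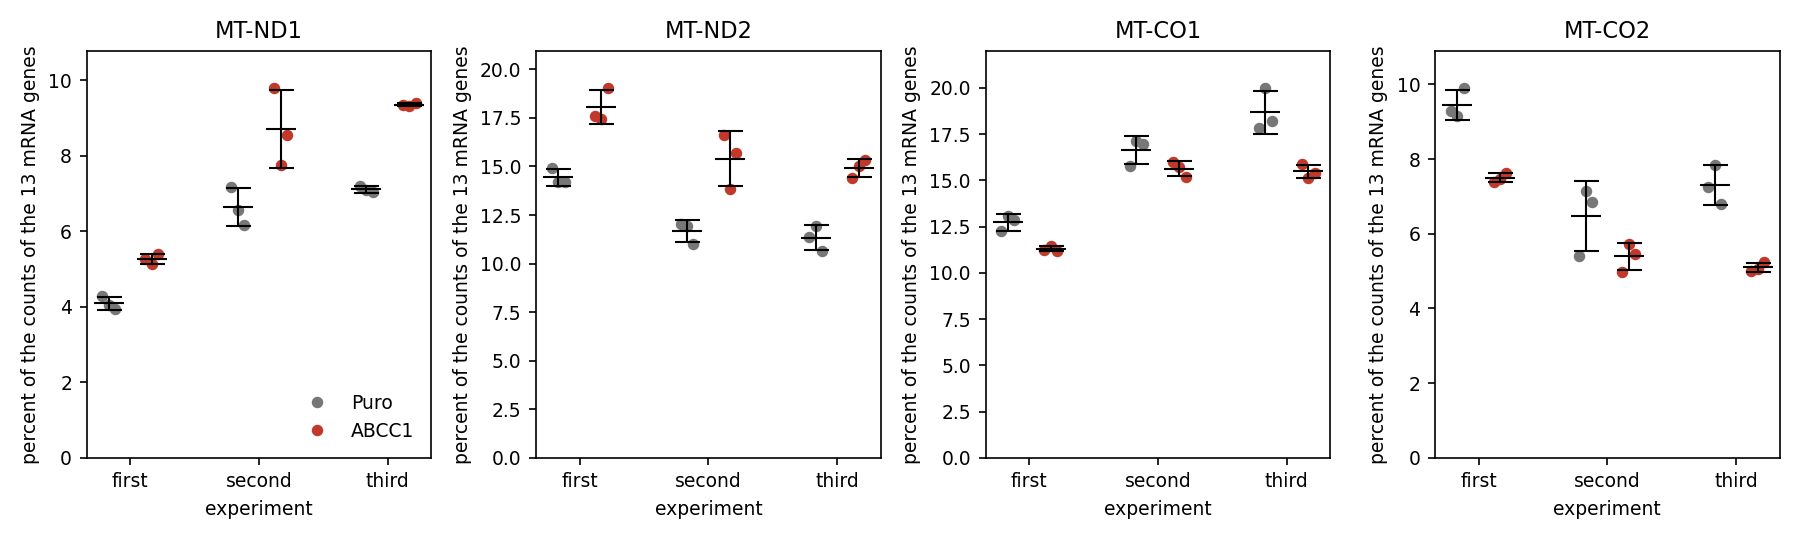
Percent of the counts of the 13 mitochondrial mRNA genes taken by MT-ND1, MT-ND2, MT-CO1 and MT-CO2 in each library, grey for Puro and red for ABCC1, with bars for the mean and SD of 3 libraries. MT-ND1 and MT-ND2 lie higher with ABCC1 without overlap in all 3 experiments, and MT-CO1 and MT-CO2 lie lower without overlap in the first and the third.

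With the 13 mRNAs as the library size, the mean effect over the experiments was 0.38 ± 0.078 (SE) on the log2 scale for MT-ND1 (edgeR adjusted p = 0.000268), 0.37 ± 0.077 for MT-ND2 (adjusted p = 0.000329) and -0.37 ± 0.079 for MT-CO2 (adjusted p = 0.000521). These 3 calls held with each of the 18 libraries left out, the adjusted p staying at or below 0.00173, 0.00182 and 0.00362. MT-ATP8 was called as well, at 0.26 ± 0.083 (adjusted p = 0.0409), but passed without only 10 of the 18 libraries, and MT-CO1 was not called, at -0.18 ± 0.076 (adjusted p = 0.176). In all 6 of the 37 genes were called on this scale, against 7.33% of all genes tested. Within single experiments 0 of the 13 mRNAs passed on it, where 16.1%, 0.123% and 2.14% of all genes tested did. An unadjusted p of at most 0.05 was found for 3, 4 and 4 of the 13, beside 26.5%, 15% and 10.1% of all genes tested. The SE drew on a spread shared over all genes tested, nuclear ones included. For MT-ND1 in the third experiment it was 0.17 (edgeR adjusted p = 0.322), although its percent shares had SDs of 0.088 in controls and 0.039 with ABCC1. The 0 calls therefore do not measure how far the mRNA shares moved. The number called was 4 in the first experiment without ABCC1 replicate 3 and 2 in the third without control replicate 3, where 31.3% and 6.68% of all genes tested were called, and 0 without any other library.

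The ratio of MT-CO2 to MT-ND2 counts summarises this shift within a library and was chosen after the values had been seen. It was 0.621, 0.644 and 0.699 in the control libraries of the first experiment and 0.419, 0.428 and 0.401 with ABCC1, and in the third 0.638, 0.657 and 0.639 against 0.347, 0.336 and 0.342. In the second it was 0.449, 0.598 and 0.623 against 0.300, 0.414 and 0.348.

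The remaining mRNAs did not move together. MT-ATP6, MT-CO3 and MT-ATP8 had 1 sign in all 3 experiments on the mRNA scale without being apart in all of them, and MT-ND3, MT-ND4L, MT-ND4 and MT-ND5 changed sign between experiments. MT-ND6 took 0.715, 0.737 and 0.737% of the mRNA counts in control cells of the first experiment and 0.678, 0.665 and 0.731% with ABCC1, and 3.55, 3.19 and 3.34% against 1.97, 2.58 and 2.56% in the second. In the third the groups overlapped, at 4.35, 3.16 and 4.67% against 4.199, 3.92 and 3.78%, a log2 difference of -0.015. MT-CYB was lower with ABCC1 without overlap in the first and second experiments, by -0.096 and -0.34 on the log2 scale, and by -0.016 in the third. Within the second experiment, ABCC1 replicate 1 had both the lowest MT-ND6 share and the fewest stray reads. Stray reads were lower with ABCC1 in the other experiments too, and their part in these values was not tested.

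Tested one experiment at a time with libraries scaled by all genes, 2 of the 13 mRNAs passed in the first experiment and 0 in the others. MT-ND1 rose by 0.46 ± 0.095 (log2, SE; edgeR adjusted p = 0.00457) and MT-ND2 by 0.42 ± 0.11 (adjusted p = 0.0147) in the first. MT-ND1 was at 0.48 ± 0.21 in the second (adjusted p = 0.198) and 0.27 ± 0.24 in the third (adjusted p = 0.651), and MT-ND2 at 0.48 ± 0.22 (adjusted p = 0.213) and 0.26 ± 0.25 (adjusted p = 0.687). MT-CO2 was at -0.24 ± 0.098, -0.22 ± 0.23 and -0.66 ± 0.24 (adjusted p = 0.0815, 0.589 and 0.1204). MT-CO2 passed in the first with DESeq2 (adjusted p = 0.0289) and without ABCC1 replicate 3 (-0.37, edgeR adjusted p = 1.19e-05), and in the third with library totals only (-0.77, edgeR adjusted p = 3.18e-05), with nuclear protein-coding scaling (adjusted p = 0.0231) and with DESeq2 (adjusted p = 0.0261). In the third MT-ND2 stood at 0.52 without control replicate 2 (adjusted p = 0.0410) and 0.10 without control replicate 3, and MT-ND1 at 0.48 and 0.14 without the same libraries. Of all genes tested, 37.6% passed in the first experiment, 1.7% in the second and 2.8% in the third, so the 8 of 25 mitochondrial genes called in the first were below the share of all genes. In the second and the third experiments 4 and 1 of the 13 mRNAs had an unadjusted p of at most 0.05, where 21.2% and 15.2% of all genes tested did. DESeq2 called 3 and 2 of them, against 12.6% and 12.5% of the genes to which it gave an adjusted p, and limma-voom 0 in both, against 3.82% and 2.82% of all genes tested. The median log2 fold change of the 13 mRNAs was 0.020, 0.058 and -0.12, that of all genes tested was 0.0074, -0.19 and -0.091, and that of all protein-coding genes tested was 0.0069, 0.061 and -0.018.

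**Figure D4:**
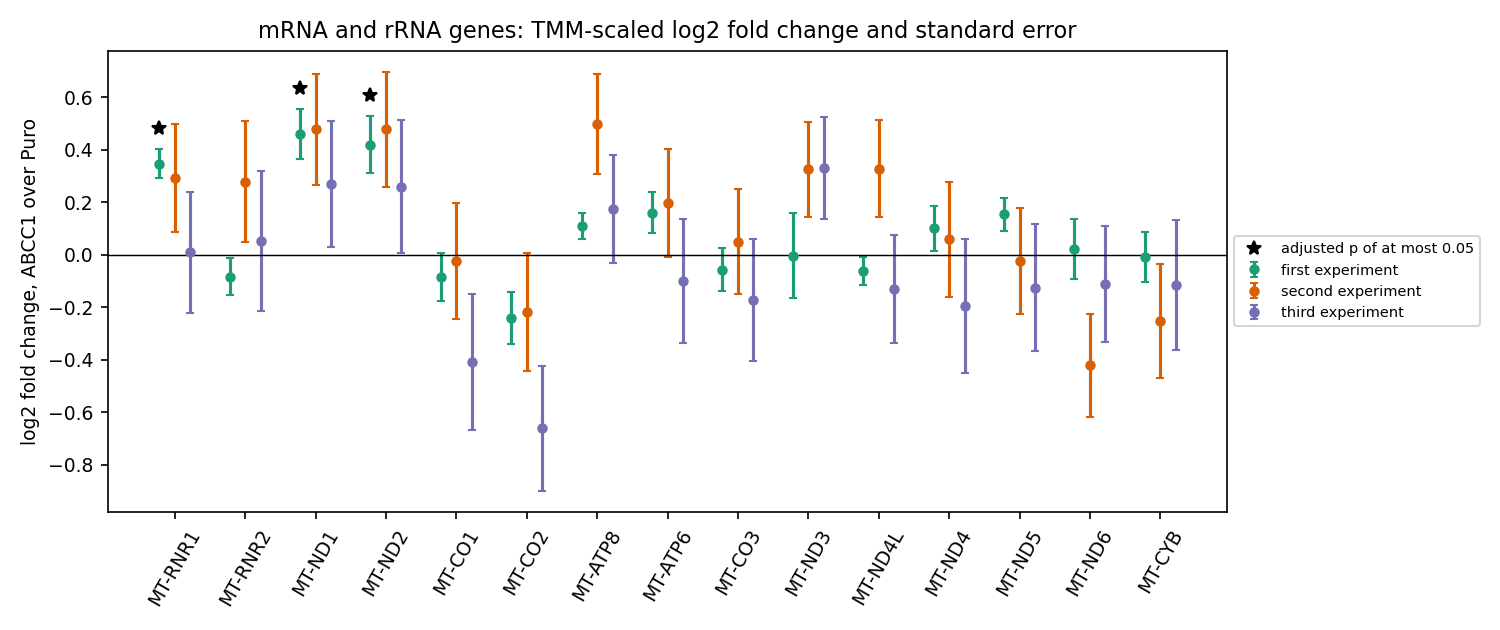
Log2 fold change of ABCC1 over Puro, with its standard error, for the 2 rRNA and 13 mRNA genes in each of the 3 experiments, from libraries scaled by all genes; stars mark an adjusted p of at most 0.05. Stars stand at MT-RNR1, MT-ND1 and MT-ND2 in the first experiment and nowhere in the others, where the standard errors are wider.

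Leaving out ABCC1 replicate 3 of the first experiment, the library with a mitochondrial share of 2.80%, raised the number of mitochondrial genes called there from 8 to 17, and the share of all genes tested that were called from 37.6% to 46.2%. MT-ND2 then stood at 0.26 (adjusted p = 9.8e-06) in place of 0.42 and MT-ND1 at 0.32 (adjusted p = 2.67e-07). MT-ND2 passed without each library in turn except control replicate 1 (adjusted p = 0.0507), and neither gene passed when genes with low counts were kept in the fit (adjusted p = 0.0718 for MT-ND1 and 0.195 for MT-ND2).

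The 2 rRNAs lie before MT-ND1 on the same strand. MT-RNR1 rose in the first experiment by 0.35 ± 0.055 (log2, SE; edgeR adjusted p = 0.000693), from 403, 447 and 438 CPM in the controls to 514, 544 and 578 CPM with ABCC1, without overlap. MT-RNR2, its neighbour beyond MT-TV, did not pass and stood at -0.084 ± 0.071 (adjusted p = 0.389). In the second experiment the values were 0.29 ± 0.20 for MT-RNR1 and 0.28 ± 0.23 for MT-RNR2, and in the third 0.0084 ± 0.23 and 0.053 ± 0.27, and neither passed. Over the 3 experiments neither rRNA was called, at 0.28 ± 0.11 for MT-RNR1 (adjusted p = 0.0818) and 0.15 ± 0.12 for MT-RNR2 (adjusted p = 0.610).

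Among the tRNA genes, counts rose at MT-TC and fell at MT-TP over the 3 experiments on both scales. Many tRNA genes directly abut their neighbours, as MT-TV does the rRNA genes on its sides. A read pair that reached from a tRNA gene into a neighbouring gene was counted for neither. The counts therefore hold pairs that lay within the tRNA gene or reached from it into bases without a gene. Whether they measure the level of the finished tRNA was not tested. MT-TC had a mean log2 effect of 0.79 ± 0.12 (SE) scaled by all genes (edgeR adjusted p = 8.2e-06) and 0.69 ± 0.12 scaled by the mRNAs (adjusted p = 6.93e-05), and MT-TP -0.29 ± 0.084 (adjusted p = 0.0134) and -0.40 ± 0.11 (adjusted p = 0.00811). Both calls held with each of the 18 libraries left out, on both scales. MT-TF and MT-TV were called only on the scale of all genes, at 0.31 and 0.32 (adjusted p = 0.0346 and 0.0433), and passed without only 10 and 6 of the 18 libraries. Neither had 1 sign in all 3 experiments, and MT-TV stood at 0.77, -0.31 and 0.29 (adjusted p = 0.0104, 0.395 and 0.488).

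MT-TC had 16.5, 14.7 and 15.2 CPM in control cells of the first experiment and 19.5, 21.7 and 32.9 CPM with ABCC1. In the third it had 21.1, 37.2 and 37.5 CPM against 58.5, 61.9 and 77.9 CPM, again without overlap, and in the second 73.6, 99.1 and 137 CPM against 162, 143 and 117 CPM, which overlapped. The log2 fold changes were 0.68 ± 0.18 (edgeR adjusted p = 0.0173), 0.45 ± 0.20 (adjusted p = 0.207) and 1.05 ± 0.17 (adjusted p = 1.31e-05). The change in the first experiment was 0.40 without ABCC1 replicate 3 (adjusted p = 6.43e-05), and it did not pass without control replicate 2 (adjusted p = 0.0520) or with genes of low counts kept (adjusted p = 0.200).

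MT-TN, 31 bases from MT-TC across the origin of light-strand replication, followed it in the total RNA libraries. It had 15.7, 41.7 and 40.7 CPM in control cells of the third experiment and 52.3, 57.2 and 69.0 CPM with ABCC1, a log2 fold change of 0.87 ± 0.18 (edgeR adjusted p = 0.00141) that did not pass without control replicate 1 (0.56, adjusted p = 0.180). In the second the values were 77.3, 92.5 and 129 CPM against 167, 144 and 120 CPM, and the change of 0.53 ± 0.19 did not pass (adjusted p = 0.130). The ratio of MT-TN to MT-TC lay between 0.744 and 1.12 in all 12 total RNA libraries.

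MT-TP, at the far end of the map, had 9.63, 10.7 and 10.6 CPM in control cells and 8.99, 8.86 and 7.60 CPM with ABCC1 in the first experiment. In the second it had 75.9, 65.6 and 85.0 CPM against 47.1, 51.7 and 48.6 CPM, and both experiments showed no overlap. In the third the groups overlapped, at 79.8, 66.0 and 75.1 CPM against 64.8, 73.5 and 59.3 CPM. It fell by 0.28 on the log2 scale in the first (adjusted p = 0.0287) and by 0.62 in the second (adjusted p = 0.0484), and stood at -0.16 in the third (adjusted p = 0.710). MT-TP was the only mitochondrial gene called in the second experiment, and this call was lost without any 1 of the 6 libraries (adjusted p from 0.0531 to 0.224) and with RLE size factors (adjusted p = 0.136). In the first experiment it was lost without control replicate 2 or 3 (adjusted p = 0.0964 and 0.104).

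MT-TF, the first tRNA of the plus-strand transcript, differed between experiments. It had 5.08, 5.98 and 5.39 CPM in control cells of the first experiment and 13.7, 15.2 and 9.58 CPM with ABCC1, a rise of 1.22 ± 0.17 on the log2 scale (adjusted p = 0.000434). In the second it had 12.8, 10.5 and 14.7 CPM against 7.39, 9.13 and 8.58 CPM, also without overlap but lower with ABCC1, at -0.59 ± 0.21 (adjusted p = 0.113). In the third the groups overlapped, at 23.4, 12.3 and 17.9 CPM against 19.5, 21.1 and 17.5 CPM. A test of the difference in the ABCC1 effect between the 3 experiments called MT-TF (edgeR adjusted p = 3.37e-06), MT-TV, MT-TH (histidine) and MT-TS2 (serine), 4 of 37 mitochondrial genes against 1.19% of all genes tested. None of the mRNAs or rRNAs was called by it. MT-TH and MT-TS2 had at most 4 counts in any library of the first experiment, too few to read an ABCC1 effect there. The number called was 2 without ABCC1 replicate 1 of the first, control replicate 3 of the second or control replicate 2 of the third experiment, 7 without ABCC1 replicate 3 of the first or of the third, and 8 without ABCC1 replicate 1 of the second.

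**Figure D5:**
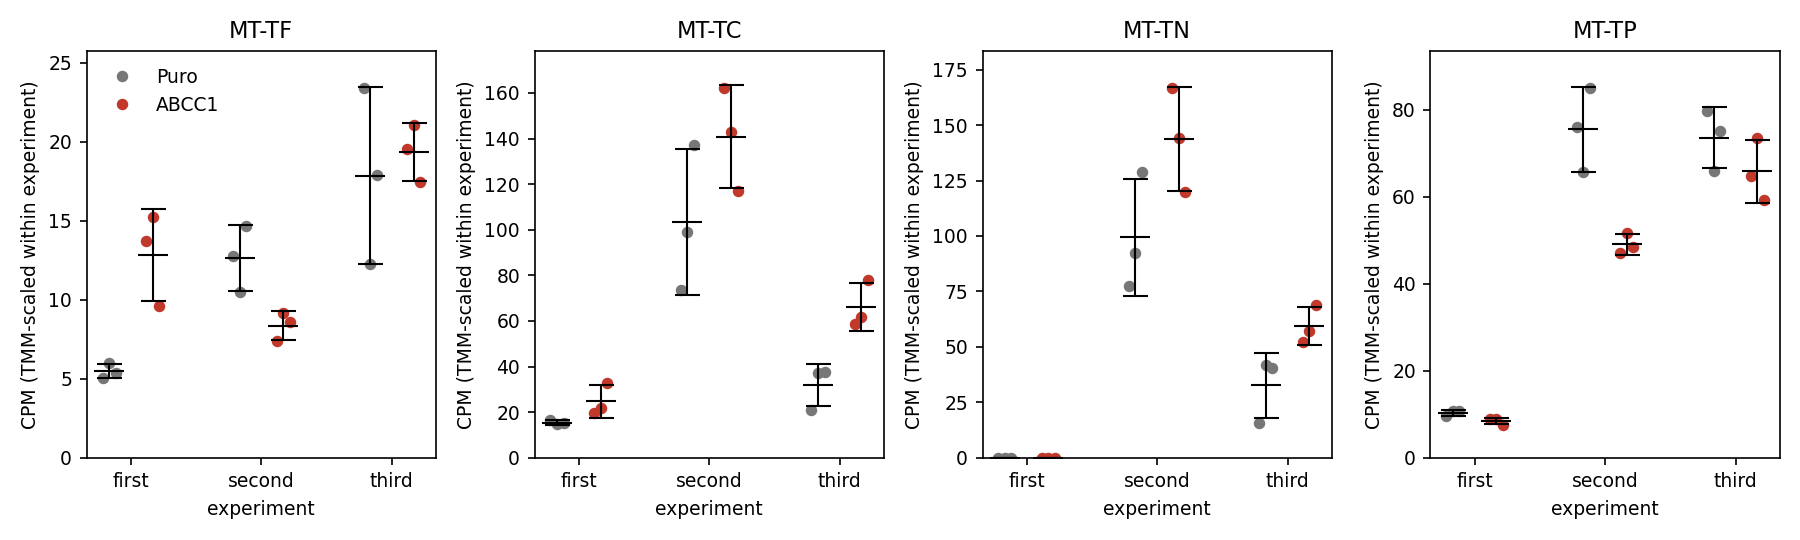
CPM of MT-TF, MT-TC, MT-TN and MT-TP in each library, grey for Puro and red for ABCC1, with bars for the mean and SD of 3 libraries. MT-TF is higher with ABCC1 in the first experiment and lower in the second, MT-TC is higher in the first and the third without overlap, MT-TN has 0 counts in the first experiment, and MT-TP is lower in the first and second without overlap.

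In the first experiment, counts rose at 4 of the 10 tRNA genes tested and fell at 1, where 37.6% of all genes tested were called in either direction. MT-TV went from 5.97, 7.08 and 7.23 CPM in the controls to 13.1, 13.6 and 8.15 CPM with ABCC1 (0.77 ± 0.19, edgeR adjusted p = 0.0104), and MT-TM from 18.2, 18.5 and 14.8 CPM to 27.7, 30.1 and 27.0 CPM (0.71 ± 0.085, adjusted p = 9.56e-05). Neither group overlapped. In the second experiment 18 of 22 tRNAs had a value below 0, with a median of -0.53 beside -0.19 for all genes tested, and in the third 16 of 22 had a value above 0, with a median of 0.27 beside -0.091. Stray reads were lower with ABCC1 in both, and their part was not tested. The mean CPM over the 18 libraries, in which the total RNA libraries weigh most, was used only to choose tRNAs to name: MT-TV, MT-TC and MT-TN as the highest and MT-TK, MT-TL2 (leucine) and MT-TS1 as the lowest, and of the lowest none passed in any experiment. The order was another in the first experiment, with MT-TM, MT-TC and MT-TY (tyrosine) highest in both lines and MT-TN at 0 counts.

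Copies of mitochondrial sequence in the nuclear genome can take or lose reads that match both. The 402 annotated copies held 0.732 to 2.17% as many counts as the mitochondrial genes. The 3 with the most counts in the first experiment were MTATP6P1, with 9.86 to 15.5% of the counts of MT-ATP6, MTND2P28, with 3.80 to 4.91% of those of MT-ND2 in the first experiment and 0.268 to 0.453% in the others, and MTND4P12, with at most 1.66% of those of MT-ND4. In the total RNA libraries MTCO1P12 had more counts than MTND4P12, at 133 to 388. With the counts of MTND2P28 added to MT-ND2, the ratio of MT-CO2 to MT-ND2 was 0.592 to 0.670 in the controls and 0.386 to 0.410 with ABCC1 in the first experiment, still without overlap. Read pairs that matched a copy and the mitochondrial gene equally well were not counted.

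The nuclear genes that run the mitochondrial genome were taken from a list of 69 genes by role, of which 68 were found in the files. With ABCC1, 21 of 68 tested rose and 5 fell in the first experiment, 6 rose and 0 fell in the second, and 14 of 67 rose and 0 fell in the third, beside 37.6%, 1.7% and 2.8% of all genes tested in either direction. The median of the list was 0.069, 0.34 and 0.31 on the log2 scale, beside 0.0069, 0.061 and -0.018 over all protein-coding genes tested. The shares called were instead over all 16995, 34091 and 36509 genes tested, noncoding ones included, which the listed genes are not. For the listed genes that rose in all 3 experiments, named below, the share of all genes called so was not computed. By non-overlap of libraries, 6.68% of 16734 genes were higher with ABCC1 in every experiment and 1.49% lower. The calls on the list depended on single libraries. Without ABCC1 replicate 3 of the first experiment 38 of the list were called there, and 18 to 24 without any other library. In the second 0 were called without control replicate 3 or ABCC1 replicate 2, 2 without ABCC1 replicate 1 and 3 without control replicate 1 or 2. In the third there were 29 without control replicate 2, 22 without ABCC1 replicate 1, and 6 or 7 without any other library.

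The factors that start transcription were mostly not called. TFAM, which packages the DNA and opens the promoters, stood at 0.076, 0.34 and 0.33 in the 3 experiments (adjusted p = 0.349, 0.222 and 0.335), and POLRMT, the mitochondrial RNA polymerase, at 0.25, 0.38 and 0.42 (adjusted p = 0.0972, 0.197 and 0.215). Of the 9 transcription genes 2, 0 and 1 rose, TFB2M, the factor that melts the promoter, among them in the first (0.25, adjusted p = 0.00594) and the third (0.68, adjusted p = 0.00736).

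Of the 8 genes for RNA stability and decay 3, 2 and 3 rose, and in the first experiment 2 fell, PNPT1, the nuclease of the degradosome, and PDE12, which removes poly(A) tails. SUPV3L1, the helicase of the mitochondrial RNA degradosome, rose in all 3 experiments, by 0.37 ± 0.047, 0.84 ± 0.16 and 0.79 ± 0.16 (SE; adjusted p = 0.00014, 0.0125 and 0.000805), and so did MTPAP, the mitochondrial poly(A) polymerase, by 0.33 ± 0.041, 0.80 ± 0.16 and 1.16 ± 0.17 (adjusted p = 0.000115, 0.0196 and 1.39e-06). LRPPRC, which holds messengers in a stable form together with SLIRP, stood at -0.084, 0.33 and 0.18 and was not called. SLIRP rose in the first (0.25, adjusted p = 0.00562) and the third (0.57, adjusted p = 0.0343).

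Of the 11 RNA processing genes 4 rose in the first experiment, 0 in the second and 3 of 10 tested in the third. TRMT10C, a subunit of the RNase P that cuts the 5′ ends of the tRNAs, rose in the first and the third (0.29 and 0.90, adjusted p = 0.000326 and 0.000151), and FASTKD5, which is needed to process messengers that no tRNA flanks, in the same experiments (0.24 and 0.58, adjusted p = 0.00195 and 0.0377). In the rRNA group MRM3, a methyltransferase of the large rRNA, rose in all 3 experiments (0.30, 0.67 and 0.71, adjusted p = 0.00273, 0.0488 and 0.00633), as did DDX28, an assembly factor of the large subunit (0.45, 0.81 and 0.91, adjusted p = 0.000118, 0.0198 and 0.000644). TRMT5, which methylates tRNAs beside the anticodon, rose in all 3 as well (0.35, 0.67 and 0.86, adjusted p = 7.52e-05, 0.0356 and 0.000181), and of the 9 replication genes 3, 1 and 1 rose. Among them TWNK, the replicative helicase, rose in the first and second (0.30 and 0.70, adjusted p = 0.000677 and 0.0374), and DNA2, a nuclease and helicase, fell by 0.17 in the first (adjusted p = 0.0278). Of the 11 translation genes 1, 0 and 1 rose, and in the first experiment GFM1, an elongation factor, fell by 0.24 (adjusted p = 0.000962). The biogenesis regulator PPARGC1A fell in the first experiment as well, by 0.42 (adjusted p = 0.000144), while its relative PPARGC1B rose by 0.29 (adjusted p = 0.00239). TFB2M, SLIRP, PPARGC1B and the genes that fell were named after their values had been seen.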

How the data were processed

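Per the file headers, the deposited values are raw counts of read pairs per gene, 1 table per library. The authors demultiplexed with bcl2fastq 2.18, aligned with STAR 2.7.3a to GRCh37 with the vector sequences added, and counted with featureCounts (Subread 2.0.0) on the exons of Ensembl release 74, without strand and without pairs that map to several places or overlap 2 genes. Nothing was normalized before deposit. A further 92 spike-in controls and 6 vector sequences were counted.

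From these counts, each experiment was tested with edgeR 4.0.16 (quasi-likelihood test, TMM factors, genes kept by filterByExpr with a minimum count of 10) in R 4.3.3. The study's methods describe weekly plating of each line, but the labels do not tie libraries to weeks, so p-values measure only the spread between these libraries of 1 line, which may be technical. Adjusted p-values are Benjamini-Hochberg values over all genes tested, with calls at 0.05. One fit to all 18 libraries gave the kit contrast, the mean ABCC1 effect and its difference between experiments, with 1 spread per gene over both kits. For the relative scale the counts of the 13 mitochondrial mRNAs were the library size. Its spread was still shared over all genes tested, so p-values on it also carry the scatter of nuclear counts against mitochondrial ones. CPM are counts scaled to the total of the library times its TMM factor, which was estimated within each experiment, so levels are comparable within and not across experiments. They are given per kilobase where stated. Mitochondrial CPM and shares carry no such factor, and shares were compared by exact permutation tests. DESeq2 1.42.0, limma-voom (limma 3.58.1), other size factors and filters, a stricter threshold of 0.001 and the omission of single libraries were alternatives. The fits were tested on simulated data. Intervals from counting alone were not used, and a count of 0 allows up to 3 counts.

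The members and gene lists were chosen with earlier results of these data known. All mRNAs and rRNAs were named, with the 3 highest and 3 lowest tRNAs by mean CPM, tRNAs called in an experiment, TFAM, POLRMT, LRPPRC and up to 8 listed nuclear genes called the same way in at least 2 experiments. Names and sequences came from GENCODE release 29 on GRCh38, which matched 52338 Ensembl IDs. The level of 1 marker gene is not reported here.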

Additional observations from a re-analysis of the deposited data

Results flagged for a closer look

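The edgeR test of a difference in the ABCC1 effect between the 3 experiments called 4 tRNAs. The adjusted p was 3.37e-06 for MT-TF, 0.0338 for MT-TV, 0.00669 for MT-TH and 0.0204 for MT-TS2. With the 13 mitochondrial mRNAs as library size, MT-TF and MT-TH passed (adjusted p = 0.0029 and 0.0306). MT-TH and MT-TS2 had at most 4 counts in any library of the first experiment and were not tested there alone. They entered this test through the total RNA libraries, so it cannot show how their effect in the first experiment differed.

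Spike-in controls, which no comparison used, had 57 counts in ABCC1 replicate 3 of the first experiment and at most 7 in any other library. The same library had the highest mitochondrial share of its experiment.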

How the results depend on the processing

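The number of mitochondrial genes called (8, 1 and 2 in the first, second and the third experiments) was 3, 0 and 1 at an adjusted p of at most 0.001. Without 1 library each it ran from 7 to 17, from 0 to 1 and from 1 to 4. In the second it was 0 with RLE size factors, 3 with library totals only, 5 with DESeq2, 2 with limma-voom, 2 with no low-count filter and 5 with at least 10 counts in every library. In the third it was 4 with nuclear protein-coding scaling, with DESeq2 and with at least 10 counts in every library. The machinery genes called (26, 6 and 14) were 9, 0 and 5 at 0.001. In the second they were 1 with library totals only, 2 with nuclear protein-coding scaling and 20 with DESeq2, and 0 to 6 without 1 library. In the first they were 18 with the replicate block and 18 to 38 without 1 library. In the third they were 6 to 29 without 1 library.

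The median of the 13 mRNAs in the second experiment was -0.14 with library totals only and ran from -0.029 to 0.27 without 1 library. MT-CO2 there ran from -0.42 to 0.049, and MT-TF in the third from -0.088 to 0.39, with -0.033 with library totals only. The difference in mitochondrial share ran from -0.026 to 0.27 percentage points in the first and from -0.33 to 0.12 in the second. Relative to the 13 mRNAs and without 1 library, the mRNAs called ran from 0 to 4 in the first and from 0 to 2 in the third experiment. The kit comparison called 20 genes in control and 18 in ABCC1-overexpressing cells with at least 10 counts in every library, where fewer genes were tested. The difference between experiments was called for 2 to 8 genes and the mean effect for 4 to 9. Apart from these constructions, the cause was not tested.

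The labels number replicates in both lines, but the numbers did not pair the libraries: correlations of same-numbered libraries ran from -0.21 to 0.16. With the replicate block, 4 mitochondrial genes were called in the third experiment, and relative to the mRNAs 1 mRNA was called in the first and 6 in the third. MT-CO2 passed in the first and the third (adjusted p = 0.0177 and 0.0346), and the MT-TP calls were lost in the first and second (adjusted p = 0.0552 and 0.0678). Of 69 fold changes of named mitochondrial genes, 23 changed sign under some alternative, 0 of them among the 11 called. Of the 23, MT-ND6 in the first experiment passed with the changed sign, lower with ABCC1, without ABCC1 replicate 3. Of the 11, 5 passed under every alternative. Of 22 tRNAs, 9 had at least 10 counts in every library of the first experiment, against 21 in every library of the others.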
